A study of Mus musculus with 8 samples.

Results

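The 9 genes described here, Spi1, Maf, Cebpa, Cebpb, Irf8, Runx1, Zeb2, Tfec and Mitf, encode transcription factors that set up or maintain the macrophage lineage. They were chosen by name, and all 9 were matched to Ensembl identifiers among the 34745 genes of a count table of mouse messenger RNA. All 9 also passed the filter on low counts that left 14040 genes for testing. Bone-marrow-derived macrophages (BMDM), primary macrophages grown from marrow cells in M-CSF at 20 ng/ml, came from 2 genotypes, wild type (WT) and KAT8-deficient, the second labelled a conditional knockout. KAT8 (MOF) is a histone acetyltransferase of the MSL and NSL complexes. Cells were left untreated or given R848 (resiquimod), a small-molecule agonist of the RNA sensor TLR7, at 100 ng/ml for 6 h. The 4 groups, WT untreated, WT R848, KAT8-deficient untreated and KAT8-deficient R848, held 2 libraries each, and all shared the culture in M-CSF. The sources used here do not give the Cre driver, the deleted part of Kat8, the strain or the age of the mice. Nothing says whether replicates came from separate animals, so p-values measure only the spread between these libraries.

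The factors act in an order during myelopoiesis. Runx1 and PU.1 (the product of Spi1) open the myeloid programme, with PU.1 binding at most macrophage enhancers, and C/EBP-alpha (Cebpa) drives progenitors into the granulocyte and monocyte branch. IRF8 favours monocytes over neutrophils, C/EBP-beta (Cebpb) serves inflammatory gene expression in mature cells, c-Maf (Maf) belongs to the differentiated, resident-type macrophage, and ZEB2 is a zinc-finger repressor that keeps macrophage identity. MITF and TFEC are related basic helix-loop-helix leucine zipper factors, which act on lysosomal and osteoclast genes.

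The libraries held 18550977 to 21384532 counts, of which 3 amounted to 0.14 to 0.162 CPM, the count scaled to library size. Levels of single genes below are CPM on TMM-scaled library sizes, and sums over marker lists are CPM on unscaled totals. Kat8 itself stood at 17 and 17.9 CPM in untreated WT libraries and 8.76 and 10.8 in untreated KAT8-deficient libraries. Under R848 it stood at 18 and 16 against 9.94 and 10.4, so every KAT8-deficient library was below every WT library. All 10 macrophage markers examined were tested. The 9 other than Lyz2 summed to 4035 to 4249 CPM in untreated WT and 4222 to 4481 in WT R848 libraries. They summed to 3865 to 4110 in untreated KAT8-deficient and 3816 to 4077 in KAT8-deficient R848 libraries. Under R848, 4 of the 10 were lower and 1 higher in KAT8-deficient cells at an edgeR adjusted p under 0.05 (5.47% and 8.14% of all genes). Lyz2, a lysozyme gene, stood at 11030 to 12140 CPM in WT and 5202 to 5944 in KAT8-deficient libraries. As the Cre driver is not given, effects of the Cre allele and of KAT8 deficiency on Lyz2 cannot be told apart. The 10 neutrophil markers summed to at most 8.46 CPM and the 7 dendritic cell markers to at most 10.8 CPM, with Ly6g, Flt3 and Siglech at 0 in all libraries. The 8 osteoclast markers summed to 1192 to 1413 CPM over the libraries. Under R848, 3 of the 5 tested were lower and 1 higher in KAT8-deficient cells by edgeR (5.47% and 8.14% of all genes). Some of them, such as Acp5 and Ctsk, also appear below as targets of the MITF and TFEC family. Stromal markers were abundant and moved with the groups. The 11 genes summed to 3289 and 3768 CPM in untreated WT, 2711 to 2951 in WT R848, 4582 to 4816 in untreated KAT8-deficient and 4041 to 4183 in KAT8-deficient R848 libraries, with none at 0. In bulk RNA, fewer cells of a type and less RNA per cell cannot be told apart.

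Cebpb, Spi1 and Cebpa were the most abundant of the 9 messenger RNAs per length, and Tfec and Runx1 the scarcest. Per kilobase of exon, untreated WT libraries held a mean of 198 CPM of Cebpb (SD 30.5), 115 of Spi1 (SD 8.34) and 115 of Cebpa (SD 7.65; n = 2 for each). Then came Irf8 at 19.7, Maf at 18.7, Zeb2 at 14.9, Mitf at 8.56, Runx1 at 4.32 and Tfec at 2.27 CPM per kilobase. Only Spi1 and Cebpa overlapped as neighbours in that order. In WT R848 libraries no neighbours overlapped, and Zeb2 (19.8) stood above Maf (15.1) and Irf8 (13.3), while Cebpa (54.6) was well below Spi1 (132). In untreated KAT8-deficient libraries Maf (23.9) came before Irf8 (18.1), and Spi1 (107) overlapped with Cebpa (107). In KAT8-deficient R848 libraries the order was the same, with overlap between Irf8 (15.5) and Zeb2 (15.3). Between the lowest and the highest library, levels spanned 1.24-fold for Spi1 and 2.24-fold for Cebpa, which had the narrowest and the widest spans of the 9.

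**Figure D1:**
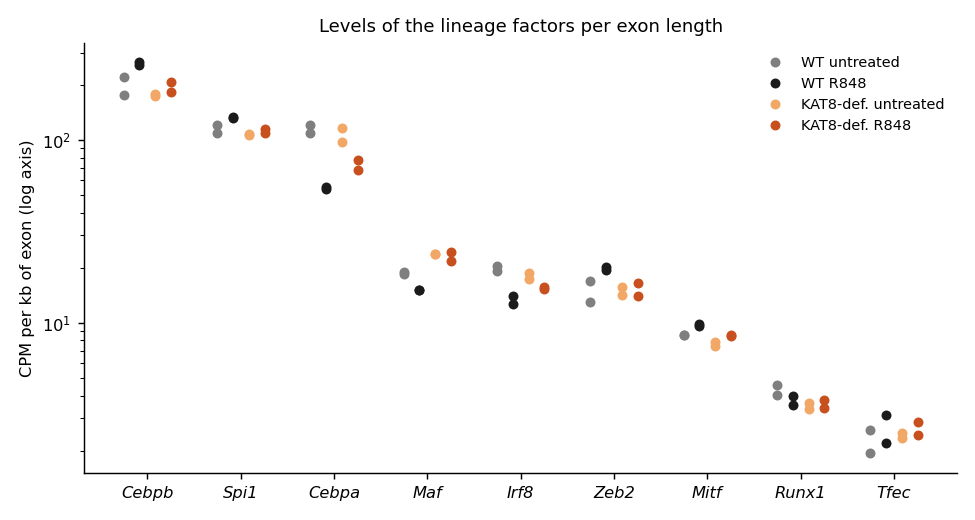
Points are single libraries, coloured by group, with CPM per kilobase of union exon length on a log axis and the 9 genes ordered by their median. Cebpb, Spi1 and Cebpa lie above the others in every library, and the Cebpa points of the WT R848 group (53.6 and 55.5) are the lowest for that gene.

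Of the 4 genes that passed under R848 in WT cells, Maf had no matched RefSeq window, and the promoters of Cebpa, Irf8 and Cebpb are printed. They are RefSeq windows (GRCm38.p6) from 250 bases before to 50 bases after the start site, 300 bases each, at chr7:35119043-35119342, chr8:120736108-120736407 and chr2:167688665-167688964, all on the plus strand. Capitals mark matches, on either strand, to the motifs searched other than CCAAT.
Cebpa: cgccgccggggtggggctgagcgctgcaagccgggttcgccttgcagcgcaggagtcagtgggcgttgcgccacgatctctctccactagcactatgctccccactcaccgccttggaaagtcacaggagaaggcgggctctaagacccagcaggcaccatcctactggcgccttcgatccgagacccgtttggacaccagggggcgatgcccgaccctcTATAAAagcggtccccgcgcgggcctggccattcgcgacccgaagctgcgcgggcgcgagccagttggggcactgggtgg
Irf8: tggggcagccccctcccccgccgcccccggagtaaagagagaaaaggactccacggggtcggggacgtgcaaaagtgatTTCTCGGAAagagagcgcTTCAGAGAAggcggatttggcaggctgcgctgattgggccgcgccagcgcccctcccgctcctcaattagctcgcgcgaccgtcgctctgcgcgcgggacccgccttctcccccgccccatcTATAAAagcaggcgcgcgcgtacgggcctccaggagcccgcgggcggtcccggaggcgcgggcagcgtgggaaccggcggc
Cebpb: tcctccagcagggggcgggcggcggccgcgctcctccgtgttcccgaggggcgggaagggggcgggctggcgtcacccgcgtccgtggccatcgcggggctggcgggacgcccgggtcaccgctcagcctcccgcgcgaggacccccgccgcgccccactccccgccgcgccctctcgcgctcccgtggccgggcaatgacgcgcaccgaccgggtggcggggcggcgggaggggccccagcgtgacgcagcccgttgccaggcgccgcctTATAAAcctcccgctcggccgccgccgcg

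Each of the 3 windows held the letters TATAAA, which 13.62% of all 32851 promoter windows hold. The match began 30 bases before the start site in Cebpa and 31 before it in Irf8, and 21 bases after it in Cebpb. Irf8 also held TTCNNNGAA, the core of a STAT site, at 171 and 153 bases before the start, against 8.3% of windows with any match. None of the 3 held the interferon-stimulated response element (3.44% of windows), the ETS-IRF composite element (2.72%), the kappa B site (0.41%), the C/EBP motif TTGCNNAA (10.8%), the PU.1 motif GAGGAA (28.28%), the Runx motif TGTGGT (16.76%) or the AP-1 motif TGANTCA (7.81%). Irf8 held CCAAT on the opposite strand, 121 bases before the start (37.41% of windows), and the others did not. The Maf motif TGCTGAC (4.67%) and the E-boxes CATGTG (14.15%) and CACGTG (7.15%) were without a match in all 3. GC content was 67.3% in Cebpa, 70.0% in Irf8 and 80.7% in Cebpb, with a median of 52.7% over all windows. RefSeq windows were matched for 7 of the 9 genes (not Maf or Spi1), 14 windows in all. Mitf, Runx1, Zeb2 and Irf8 had several start sites, which gene counts do not separate.

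The R848 response of WT cells asks how TLR7 stimulation changed the lineage factors. Cebpa, Irf8 and Maf fell and Cebpb rose, while Spi1, Runx1, Zeb2, Tfec and Mitf did not pass the test. These 4 of 9 genes passed edgeR's quasi-likelihood test at a Benjamini-Hochberg adjusted p under 0.05, where 13.6% of all 14040 genes did (6.94% higher and 6.7% lower). The libraries of the groups did not overlap for 8 of 9 genes, against 56.0% of all genes.

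Cebpa (ENSMUSG00000034957, chromosome 7, 35119293 to 35121928, GRCm38, plus strand), which encodes the progenitor-stage C/EBP factor, fell the most. Untreated WT libraries held 317 and 288 CPM and R848 libraries 146 and 141. The R848 pair stood at about the same level, far below the untreated pair. By edgeR the fall was -1.07 on the log2 scale (SE 0.099, adjusted p = 0.000268). Cebpb (ENSMUSG00000056501, chromosome 2, 167688915 to 167690418, plus strand), the inflammatory relative and, like Cebpa, a gene of 1 exon, moved the other way. It stood at 266 and 331 CPM in untreated and 384 and 399 CPM in R848 libraries, with the untreated replicates further apart than the treated ones. By edgeR it rose by 0.39 on the log2 scale (SE 0.10, adjusted p = 0.0385). As the plot of the Cebpb to Cebpa ratio shows, the ratio of their levels per kilobase was 1.47 and 2.01 in untreated and 4.6 and 4.95 in R848 libraries of WT cells. No test was run on this ratio.

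Irf8 (ENSMUSG00000041515, chromosome 8, 120736358 to 120756694, plus strand), the monocyte-branch interferon regulatory factor, stood at 144 and 135 CPM untreated and fell to 99 and 89.3 CPM under R848. The treated libraries lay wholly below the untreated ones, and edgeR put the log2 change at -0.56 (SE 0.072, adjusted p = 0.0013). Maf (ENSMUSG00000055435, chromosome 8, 115682942 to 115707794, minus strand) fell less, from 156 and 153 CPM to 125 in each R848 library, with replicates almost level in both groups. By edgeR it changed by -0.31 on the log2 scale (SE 0.066, adjusted p = 0.017). The stromal marker sum was also lower in the R848 libraries of WT cells, and of 10 stromal markers tested 5 were called lower and 1 higher. Their part in the changes of Cebpa, Cebpb, Irf8 and Maf was not tested.

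Spi1 (ENSMUSG00000002111, chromosome 2, 91082390 to 91115756, plus strand), the PU.1 gene, stood at 293 and 325 CPM untreated and 357 and 356 CPM under R848. The treated libraries were higher in each pairing, but the log2 difference of 0.21 did not pass (95% interval 0.058 to 0.36, edgeR adjusted p = 0.0733). Zeb2 (ENSMUSG00000026872, chromosome 2, 44983632 to 45117395, minus strand) stood at 337 and 258 CPM untreated and 401 and 389 under R848. That was a log2 difference of 0.41 (95% interval 0.12 to 0.69, edgeR adjusted p = 0.0666), with untreated replicates far apart. Mitf (ENSMUSG00000035158, chromosome 6, 97807052 to 98021349, plus strand) stood at 53 and 53.1 CPM against 61.2 and 59.2 (log2 0.18, edgeR adjusted p = 0.101). Runx1 (ENSMUSG00000022952, chromosome 16, 92601466 to 92826149, minus strand) had a log2 difference of -0.20 (edgeR adjusted p = 0.224). Tfec (ENSMUSG00000029553, chromosome 6, 16833373 to 16898441, minus strand), at 10.8 to 17.4 CPM in WT libraries, had overlapping groups (log2 0.24, edgeR adjusted p = 0.488).

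Cebpa and Irf8 passed whichever of the 8 libraries was left out, while the edgeR call on Maf was lost without WT untreated replicate 1 (adjusted p = 0.0538) or 2 (0.0577) and without WT R848 replicate 1 (0.0929) or 2 (0.0832). Cebpb did not pass without WT untreated replicate 1 (log2 0.23, adjusted p = 0.146), WT R848 replicate 1 (0.128) or 2 (0.165), KAT8-deficient untreated replicate 1 (0.0702) or 2 (0.0672), or with only the 4 libraries compared (0.0708), and the fits that ended the other way were Spi1 without WT untreated replicate 2 (0.0394) and Zeb2 without WT untreated replicate 1 (0.0158), without a filter on low counts (0.0184) or by DESeq2 (0.00966).

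**Figure D2:**
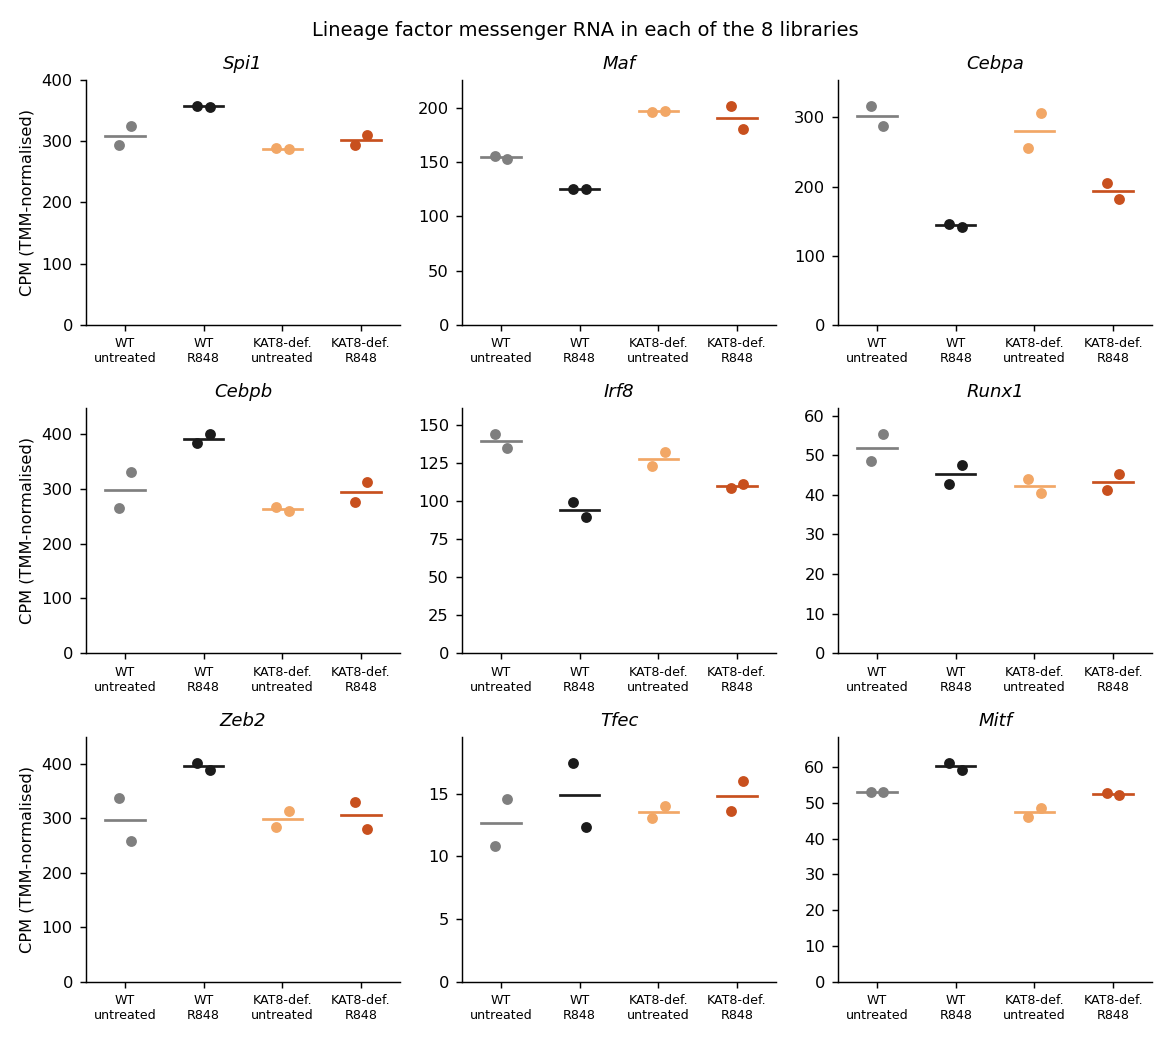
Each panel shows 1 gene, with TMM-normalised CPM from 0 on the vertical axis, points for the 2 libraries of each group and a line at their mean. Cebpa and Irf8 are lowest in the WT R848 group, Maf is lower in both WT groups than in both KAT8-deficient groups, and Cebpb, Spi1 and Zeb2 are highest in the WT R848 group.

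The R848 response of KAT8-deficient cells asks the same of cells short of KAT8. None of the 9 genes passed edgeR's test, where 0.634% of all genes did (0.499% higher and 0.135% lower). At an unadjusted edgeR p under 0.05 there were 3 (Cebpa, Irf8 and Mitf), against 1944 of all 14040 genes. DESeq2 called 1 (Cebpa), against 230 of all genes, and limma-voom called 0 of the 9. The libraries of the groups did not overlap for 5 of 9 genes, against 46.8% of all genes. Of the 10 stromal markers tested, 2 were called lower and 0 higher, against 0.135% and 0.499% of all genes. Their part in the values of the 9 genes was not tested.

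Cebpa held 256 and 306 CPM untreated and 205 and 181 under R848, so that both treated libraries were below both untreated ones. The log2 difference was -0.54 (95% interval -0.76 to -0.32, edgeR adjusted p = 0.0572). It passed with DESeq2 (adjusted p = 8.31e-05), without a filter on low counts (0.00486), with robust estimation of the spread (0.0276) and without KAT8-deficient R848 replicate 1 (0.0492). Irf8 stood at 123 and 132 CPM against 108 and 111 (log2 -0.22, 95% interval -0.38 to -0.054, edgeR adjusted p = 0.24). Maf stood at 196 and 197 CPM against 202 and 180.1, with overlapping groups and an interval of -0.19 to 0.11 on the log2 scale.

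Cebpb held 267 and 259.5 CPM untreated against 276 and 313 under R848 (log2 0.16, 95% interval -0.075 to 0.40, edgeR adjusted p = 0.534). The Cebpb to Cebpa ratio per kilobase was 1.83 and 1.49 untreated and 2.35 and 3.02 under R848, all treated values of KAT8-deficient cells being below those of WT cells. This difference in the ratio was not tested, and neither gene passed the interaction test described below. Spi1 held 288 and 287 CPM against 293 and 309.9 (log2 0.07, edgeR adjusted p = 0.7). Mitf, at 46.2 and 48.5 against 52.8 and 52.3 CPM, had a log2 difference of 0.15 (edgeR adjusted p = 0.346), close in value to its 0.18 in WT cells. Zeb2, Runx1 and Tfec had log2 differences of 0.03, 0.03 and 0.13.

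**Figure D3:**
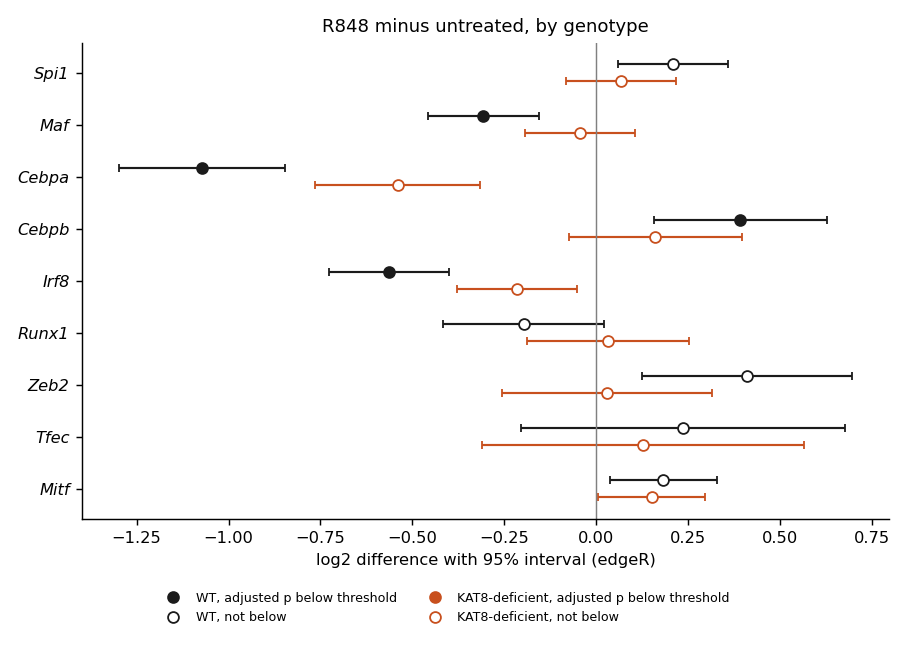
Points are log2 differences between R848 and untreated libraries from the edgeR fit, with 95% intervals, in WT (black) and KAT8-deficient cells (orange), and filled points have an adjusted p under 0.05. The filled points are Maf, Cebpa, Cebpb and Irf8 in WT cells, and Cebpa has the lowest value in each genotype (-1.07 and -0.54).

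Whether the 2 genotypes answered R848 differently was tested by the interaction, in which values above 0 mean a response more positive without full KAT8. None of the 9 genes passed edgeR's test, where 0.228% of all genes did (0.057% higher and 0.171% lower). At an unadjusted edgeR p under 0.05 there were 3 (Cebpa, Irf8 and Maf), against 1600 of all 14040 genes. DESeq2 called 1 (Cebpa), against 211 of all genes, and limma-voom called 0 of the 9. Cebpa, Irf8 and Maf had a smaller fall in KAT8-deficient than in WT libraries, by 0.53 for Cebpa (95% interval 0.22 to 0.85, edgeR adjusted p = 0.166), 0.35 for Irf8 (0.12 to 0.58, edgeR adjusted p = 0.212) and 0.26 for Maf (0.051 to 0.48, edgeR adjusted p = 0.319). For Cebpa the difference passed with DESeq2 (adjusted p = 0.0346) and without a filter on low counts (0.0496). Cebpb (-0.23), Zeb2 (-0.38), Spi1 (-0.14), Tfec (-0.11) and Mitf (-0.03) had values below 0 and Runx1 (0.23) above 0, each with an interval that included 0.

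Among untreated cells, the comparison of genotypes asks what KAT8 deficiency changed in the resting state. Maf was the only one of the 9 genes to pass, and it was higher in KAT8-deficient cells, where 4.27% of all genes passed (2.91% higher and 1.36% lower). Its levels were 156 and 153 CPM in WT and 196 and 197 in KAT8-deficient libraries, 2 tight and separate pairs. By edgeR they differed by 0.35 on the log2 scale (SE 0.066, adjusted p = 0.0262). Of the 10 stromal markers tested, 8 were called higher in KAT8-deficient cells and 0 lower, and their summed level was higher in the same libraries as Maf. Their part in the Maf difference was not tested.

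The other 8 genes did not pass in untreated cells. Runx1, at 48.6 and 55.2 CPM in WT and 44 and 40.5 in KAT8-deficient libraries, had the largest difference among them (log2 -0.29, 95% interval -0.51 to -0.076, edgeR adjusted p = 0.134). Mitf, Cebpb, Irf8, Cebpa and Spi1 had log2 differences from -0.18 to -0.10, and Zeb2 and Tfec of 0.01 and 0.10. The libraries did not overlap for 5 of 9 genes, against 50.4% of all genes. The Maf call had 6 exceptions when 1 library was left out, without WT untreated replicate 1 (adjusted p = 0.0991) or 2 (0.0946), WT R848 replicate 1 (0.0531) or 2 (0.0515), and KAT8-deficient untreated replicate 1 (0.155) or 2 (0.117), with log2 values from 0.34 to 0.36 throughout.

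Under R848, 4 of 9 genes differed between genotypes, Maf and Cebpa being higher and Cebpb and Spi1 lower in KAT8-deficient cells. Of all genes, 13.6% passed here (8.14% higher and 5.47% lower). This comparison shares its WT R848 libraries with the WT response above, so the values of each are not independent. Maf stood at 125 CPM in each WT library and at 202 and 180.1 in KAT8-deficient libraries, which edgeR put at 0.61 on the log2 scale (SE 0.066, adjusted p = 0.000866). Cebpa stood at 146 and 141 against 205 and 181 CPM (log2 0.43, SE 0.099, edgeR adjusted p = 0.023). Both KAT8-deficient libraries were above both WT libraries for these genes. Of the 10 stromal markers, 9 were called higher and 0 lower in this comparison also, and their part in the differences of Maf, Cebpa, Cebpb and Spi1 was not tested.

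Cebpb was lower, at 276 and 313 CPM in KAT8-deficient against 384 and 399 in WT libraries (log2 -0.41, SE 0.10, edgeR adjusted p = 0.0321). Spi1 had the smallest called difference, 293 and 309.9 against 357 and 356 CPM (log2 -0.24, SE 0.065, edgeR adjusted p = 0.0422). Irf8, the monocyte-branch factor, did not pass at 108 and 111 against 99 and 89.3 CPM (log2 0.22, 95% interval 0.056 to 0.38, edgeR adjusted p = 0.0808). Nor did Mitf (log2 -0.20, edgeR adjusted p = 0.0785) or the repressor gene Zeb2, at 329 and 281 against 401 and 389 CPM (log2 -0.37, edgeR adjusted p = 0.0882). Zeb2 passed with DESeq2 (adjusted p = 0.021), without a filter on low counts (0.0363) and without WT untreated replicate 1 (0.0341) or 2 (0.0345). Runx1 and Tfec had log2 differences of -0.07 and -0.01. The libraries of 7 of 9 genes did not overlap, against 59.4% of all genes.

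Maf passed under R848 whichever library was left out. The call on Cebpa was lost without WT R848 replicate 1 (adjusted p = 0.0988) or 2 (0.117) or KAT8-deficient R848 replicate 1 (0.135). Cebpb lost its call without these (0.11, 0.139 and 0.18) and without KAT8-deficient untreated replicate 1 (0.0579) or 2 (0.06). Spi1 lost it without WT R848 replicate 1 (0.175) or 2 (0.146), KAT8-deficient untreated replicate 1 (0.0755) or 2 (0.079) and KAT8-deficient R848 replicate 1 (0.213) or 2 (0.0754).

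**Figure D4:**
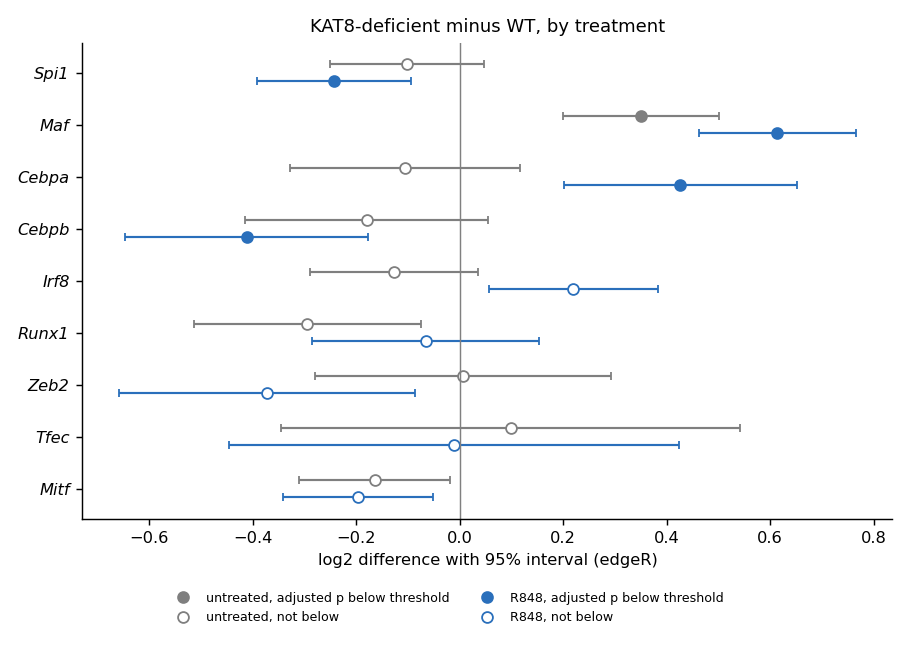
Points are log2 differences between KAT8-deficient and WT libraries from the edgeR fit, with 95% intervals, untreated (grey) and under R848 (blue), and filled points have an adjusted p under 0.05. Maf is filled and above 0 in each state (0.35 and 0.61), and Cebpa (0.43), Cebpb (-0.41) and Spi1 (-0.24) are filled under R848, and for none of the 9 genes did the difference between the states pass edgeR's interaction test.

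Some of the 9 genes share bases with other gene models, and the sources used here do not say how strand was handled in counting. Cebpb shares 312 exon bases with Tmem189 on the opposite strand, which had a mean of 4424 counts per library, so reads of the Cebpb end may be split. Tmem189 had a log2 change of 0.10 under R848 in WT cells (edgeR adjusted p = 0.684) and of 0.02 between genotypes under R848 (edgeR adjusted p = 0.954). Zeb2 shares 653 exon bases with the antisense gene Zeb2os, at 8.32 to 10.7 CPM. The antisense models that overlap Maf, Cebpa and Runx1 had a mean of at most 6.2 counts per library.

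Relatives and partners of the 9 genes were read from a list of 37 other myeloid transcription factors and cofactors, of which 34 were tested. In WT cells under R848 6 rose and 8 fell, where 6.94% of all genes rose and 6.7% fell. The median log2 change was -0.078, against -0.0024 over all genes tested. Cebpd, an inducible C/EBP gene, rose from 14.6 and 16.3 to 34 and 35.9 CPM (log2 1.18, SE 0.10, edgeR adjusted p = 0.000206). Ets2, an ETS-family gene, rose by 1.70 (SE 0.12), and Bhlhe40, a helix-loop-helix repressor gene, fell by 0.49 (SE 0.056) on the log2 scale. Fli1, another ETS-family gene, fell from 43.5 and 39.8 to 25 and 25.5 CPM (log2 -0.72, SE 0.086, edgeR adjusted p = 0.000896). These 4 passed whichever library was left out.

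In KAT8-deficient cells under R848, Ets2 was the only gene of that list to pass, rising by 0.81 (SE 0.12, edgeR adjusted p = 0.03). Of all genes, 0.634% passed there. Cebpd stood at 22.5 and 19.7 CPM untreated and 22 and 23 under R848 (log2 0.09, edgeR adjusted p = 0.743). In the interaction, where 0.228% of all genes passed, 0 of the 34 genes were higher and Cebpd was lower, at -1.09 (SE 0.14, edgeR adjusted p = 0.0295). With the replicate block its adjusted p was 0.0529. It passed in only 1 of the 8 fits that left out a library, that without KAT8-deficient R848 replicate 2, with values from -1.18 to -0.99 and adjusted p up to 0.119. The Ets2 call was lost without WT R848 replicate 1 (adjusted p = 0.0685) or 2 (0.0654), KAT8-deficient untreated replicate 1 (0.224) or 2 (0.0946) and KAT8-deficient R848 replicate 2 (0.0519).

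**Figure D5:**
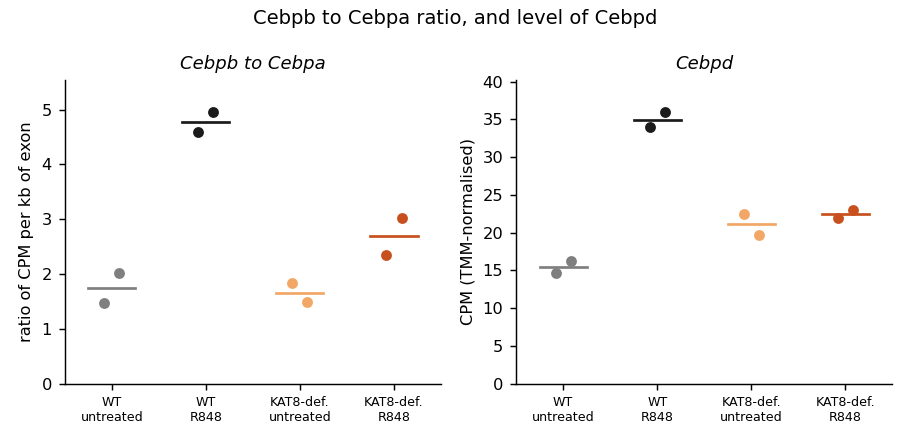
The panels show the ratio of Cebpb to Cebpa in CPM per kilobase of exon, and the CPM of Cebpd, with points for the 2 libraries of each group and a line at their mean. The WT R848 libraries have the highest ratio (4.6 and 4.95) and the highest Cebpd (34 and 35.9 CPM). The ratio was not tested.

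Between genotypes, 3 of the 34 genes were higher and 2 lower in untreated KAT8-deficient cells (median log2 difference 0.002, against -0.0072 over all genes). Of all genes, 2.91% were higher and 1.36% lower. Id1 (0.52), Egr1 (0.61) and Cebpd (0.45) were higher, and Id2 (-0.40) and Bhlhe40 (-0.31) lower, Id1 and Id2 encoding inhibitors of helix-loop-helix factors and Egr1 an immediate early factor. Under R848, 7 were higher and 5 lower (median 0.002), against 8.14% and 5.47% of all genes. Egr1 was higher, at 47.6 and 46 against 25.3 and 29.3 CPM (log2 0.78, SE 0.12, edgeR adjusted p = 0.00379), as was Id1 (0.75). Cebpd (-0.64, edgeR adjusted p = 0.00373), Id2 (-0.42), Ets2 (-0.71), Bhlhe41 (-0.26) and Spic (-2.17) were lower, the last 3 named, after their values were seen, because the count is small. Spic was near the floor of 3 counts, at 0.141 and 0.519 CPM in KAT8-deficient R848 libraries against 1.49 and 1.53 in WT R848 libraries. Of the 10 stromal markers tested, 8 untreated and 9 under R848 were called higher in KAT8-deficient cells and 0 lower. Their part in the differences of these list genes was not tested. Egr1, Id1, Id2, Cebpd and Ets2 passed under R848 whichever library was left out. In untreated cells Cebpd passed in none of these fits (adjusted p from 0.0599 to 0.266). Bhlhe40 was lost without either untreated WT replicate, either untreated KAT8-deficient replicate or WT R848 replicate 1 (up to 0.176), and Id1 without either untreated WT replicate, WT R848 replicate 1 or KAT8-deficient untreated replicate 1 (up to 0.171). Egr1 (up to 0.156) and Id2 (up to 0.0863) were lost without WT untreated replicate 1 or either untreated KAT8-deficient replicate.

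Target genes were listed by the factor that is known to act on them, and a target can answer to other factors too. The lists do not separate genes that a factor raises from genes that it lowers. For each list below, the shares of all genes that passed were 13.6% in the WT response and 0.634% in the KAT8-deficient response. They were 4.27% between untreated genotypes and 13.6% between genotypes under R848. Stromal markers differed between the groups, and their part in the list values was not tested. Of 16 tested targets of PU.1, C/EBP and Runx1, 4 rose under R848 in WT cells and 1 fell (median 0.046). Cybb, an NADPH oxidase subunit gene, rose by 1.15 (SE 0.094), Cd14, an endotoxin co-receptor gene, by 1.21 (SE 0.12), Adgre1 (F4/80) by 0.66 (SE 0.061) and Csf1r, the M-CSF receptor gene, by 0.35 (SE 0.063), and Fcgr1, an Fc receptor gene, fell by 1.03 (SE 0.14). In KAT8-deficient cells Cybb alone rose, by 0.57 (edgeR adjusted p = 0.0413), a call kept without 1 library (KAT8-deficient R848 replicate 1) and lost without each other one. Cybb and Lyz2 were lower in untreated KAT8-deficient cells and 0 higher (median -0.067). For Lyz2, here and under R848, an effect of the Cre allele cannot be told apart from one of KAT8 deficiency. Under R848 Lyz2, Cybb, Adgre1, Cd14 and Csf1r were lower and Fcgr1 higher (median -0.12), with Csf1r at 796 and 882 CPM in KAT8-deficient against 1099 and 1103 in WT libraries (log2 -0.39, SE 0.064, edgeR adjusted p = 0.00473).

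Of 10 tested Maf targets, Mertk, a receptor for the uptake of dying cells, and Il10 fell under R848 in WT cells, by 0.66 (SE 0.093) and 1.62 (SE 0.23), and 0 rose (median -0.13). In KAT8-deficient cells 0 passed edgeR's test under R848 (median 0), where 0.634% of all genes did. Under R848, Stab1 (0.53), Il10 (1.58) and C1qc (0.40) were higher in KAT8-deficient than in WT cells and Ccl8 lower (-2.58), with a median of 0.28 against -0.0075 over all genes. Il10 was low throughout, at 1.28 and 0.919 CPM in WT R848 and 3.58 and 3.02 CPM in KAT8-deficient R848 libraries. In untreated cells Ccl8 alone passed (-2.57), with a median of 0.16.

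Of 13 Irf8 targets, 6 rose and Klf4 fell in WT cells under R848 (median 0.56), among them Gbp2, an interferon-inducible GTPase gene, at 1.83 (SE 0.12), Cybb, and Cd274 (the PD-L1 gene) at 0.62 (SE 0.095). Irf8 itself fell in the same libraries. In KAT8-deficient cells Gbp2 (0.85) and Cybb rose and 0 fell (median -0.015). Under R848 6 targets were lower in KAT8-deficient than in WT cells and Klf4 higher (median -0.53), and in untreated cells Ctss (-0.40), Cybb (-0.46) and Gbp2 (-0.57) were lower and 0 higher (median -0.31).

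Of 12 tested targets of the MITF and TFEC family, Sqstm1 (0.74), an autophagy receptor gene, Clcn7 (0.51) and Acp5 (0.23) rose and Atp6v0d2 (-0.36) fell in WT cells under R848 (median -0.064), and 0 passed in KAT8-deficient cells (median -0.017), where 0.634% of all genes passed. Between genotypes, Dcstamp, a gene of osteoclast fusion, was lower in KAT8-deficient cells untreated (-1.53, SE 0.19) and under R848 (-1.42, SE 0.17), and Ctsk, the cathepsin K gene, higher (0.32 and 0.35). Gpnmb was also lower untreated (-0.37), and Sqstm1 (-0.62), Clcn7 (-0.37) and Acp5 (-0.28) were lower under R848. Medians were -0.12 untreated and -0.14 under R848. Of the 7 tested genes of the M-CSF axis, Csf1r and its ligand gene Csf1 (0.31) rose in WT cells under R848, 0 of the 7 passed in KAT8-deficient cells or between untreated genotypes, and the same pair was lower in KAT8-deficient cells under R848 (Csf1 -0.33). Of the list genes named, 15 of 19 in the WT response passed whichever library was left out. The losses were Csf1r without WT R848 replicate 1, Atp6v0d2 without WT R848 replicate 2, and Csf1 and Acp5 without any 1 of the 4 WT libraries (adjusted p up to 0.145). In the KAT8-deficient response 0 of 3 did, Gbp2 being lost without either untreated replicate or R848 replicate 2. Between untreated genotypes 2 of 14, Kat8 included, always passed (Lyz2 and Ccl8), and KAT8-deficient untreated replicate 1 was a library whose absence ended the call on all the other 12 (adjusted p up to 0.266, for Cebpd). Under R848 20 of 27 did, WT R848 replicate 1 being a library whose absence ended the call on the other 7, Acp5, Bhlhe41, C1qc, Cd14, Csf1, Kat8 and Spic (up to 0.188, for C1qc). Under every other alternative, 18 of 19 kept their calls in the WT response (not Acp5) and 1 of 3 in the KAT8-deficient response (not Cybb or Ets2). Between untreated genotypes 8 of 14 did (not Bhlhe40, Cebpd, Ctsk, Ctss, Egr1 or Gbp2), and under R848 24 of 27 (not C1qc, Csf1 or Spic).

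The tested genes closest in pattern to the called members were those with the smallest root mean square difference of centred log2 CPM over the 8 libraries. They were Abcg3, Nlrp1b and Fabp7 for Cebpa (0.071, 0.107 and 0.116), Pkib, Tvp23a and Soat1 for Irf8 (0.058 to 0.063), and Sox4, Mmd and Arhgef10 for Maf (0.033 to 0.045). For Cebpb they were Pkp4, E2f5 and Lyar (0.053 to 0.06) and for Spi1 Smg8, Nfam1 and Mkks (0.015 to 0.033). The members' own ranges over the libraries were 1.16 for Cebpa, 0.68 for Irf8, 0.69 for Maf, 0.62 for Cebpb and 0.31 for Spi1 on the same scale.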

How the data were processed

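Counts per Ensembl gene were deposited by the authors as 1 table with a column for each of 8 libraries, per the file headers. StringTie 1.3.0, HISAT2, edgeR and mm10 are named, with no role, in the submitters' processing notes. The sources used here do not give annotation, strand setting or filters. All 8 columns were matched by name, with 0 left over. Replicates differed beyond counting error (chi-square per degree of freedom 7.83 to 12.71). Symbols, positions and union exon lengths came from GENCODE M21 (GRCm38), and promoters from RefSeq.

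Genes were filtered with filterByExpr, scaled by TMM and fitted with edgeR 4.0.16 (R 4.3.3; quasi-likelihood, 1 mean per group, 4 residual degrees of freedom, common biological coefficient of variation 0.096). Adjustment was by Benjamini-Hochberg over 14040 genes, and tests were two-sided. The SE is the absolute log2 change over the square root of F. Alternatives used DESeq2 1.42.0, limma 3.58.1 and other settings. The fit was also run on data simulated with the common coefficient of variation for all genes, and the outcome is not given here. Intervals are 95%, and 3-count floors cover counting error only. Members and lists were chosen with earlier results of these data known. All 9 members and Kat8 were always named, with up to 4 called genes per list and comparison, and further list genes where a count was 5 or fewer. Likeness used log2(CPM + 0.5), 3 genes per called member, without predicted or clone names. An item of the lists is not reported here and was left out of the list counts and medians.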

Additional observations from a re-analysis of the deposited data

Results flagged for a closer look

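Cebpd, a relative of Cebpa and Cebpb, passed the edgeR interaction test for a difference in the R848 response between genotypes. The interaction was -1.09 on the log2 scale, from 1.18 in WT and 0.09 in KAT8-deficient cells (edgeR adjusted p = 0.0295). The call was lost with the replicate block (adjusted p = 0.0529) and in 7 of the 8 fits that left out a library (adjusted p up to 0.119), all but that without KAT8-deficient R848 replicate 2.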

How the results depend on the processing

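Over the 9 lineage factors and 5 comparisons, 308 values kept their direction and side of the threshold when 1 library was left out and 339 under other alternatives, while 29 and 1 lost a call, 5 and 9 gained one and 18 and 2 changed sign. Without a filter on low counts and with the DESeq2 Wald test, 1 lineage factor (Cebpa) was called in the KAT8-deficient response and in the interaction, and robust estimation of the spread called it in the KAT8-deficient response. Over all genes, the KAT8-deficient response changed from 89 calls to 274 without the filter, 230 with DESeq2, 158 with robust estimation and 22 with only the libraries compared. The untreated genotype comparison changed from 600 to 384 with only the libraries compared, and the interaction from 32 to 245 without the filter, 211 with DESeq2 and 148 with robust estimation. Leaving out each library gave 2 to 4 lineage factors called (858 to 1826 genes) in the WT response, 0 to 1 (2 to 186) in the KAT8-deficient response, 0 to 1 (66 to 606) between untreated genotypes, 1 to 5 (784 to 1894) between genotypes under R848, and 0 to 0 (6 to 208) in the interaction. The cause was not tested.

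Signs turned only for values that had not passed. Leaving out 1 library, Tfec ran from -0.042 (without WT R848 replicate 1) to 0.46 in the WT response, from -0.11 (without WT untreated replicate 1) to 0.33 between untreated genotypes, from -0.24 to 0.26 under R848 (above 0 without WT R848 replicate 1 and, at 0.11, KAT8-deficient R848 replicate 1), and from -0.34 to 0.16 in the interaction (above 0 without WT R848 replicate 1, and at 0.11 and 0.0081 without WT untreated and KAT8-deficient R848 replicate 1). Under R848 it was also above 0 at a filter of 5 CPM in 2 libraries (0.0052) and by limma-voom (0.0089). Runx1 ran from -0.043 to 0.097 in the KAT8-deficient response (below 0 without KAT8-deficient R848 replicate 2 and, at -0.02, untreated replicate 2), and from -0.14 to 0.017 under R848 (above 0 without WT R848 replicate 2 and, at 0.0069, KAT8-deficient R848 replicate 1). Zeb2 ran from -0.094 to 0.14 in the KAT8-deficient response (below 0 without KAT8-deficient R848 and, at -0.045, untreated replicate 1), and from -0.17 to 0.21 between untreated genotypes (below 0 without WT and, at -0.069, KAT8-deficient untreated replicate 2). Maf ran from -0.13 to 0.034 in the KAT8-deficient response (without KAT8-deficient R848 replicate 1 and 2), Cebpa from -0.24 to 0.016 between untreated genotypes and Mitf from -0.062 to 0.0101 in the interaction (highest without KAT8-deficient untreated replicate 1 and 2).

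Same-numbered libraries did not deviate together (correlations of -0.06 to 0.048), so the numbers were not taken to pair them, and whether they share an animal or a day is not stated. With the replicate block the counts were 1875, 73, 531, 1871 and 25 genes in the order above, against 1916, 89, 600, 1911 and 32, and the lineage factors called were 4, 0, 1, 4 and 0, as without it. Groups of 2 limit the precision, and Tfec, the scarcest lineage factor with 232 to 339 counts per library, had the largest SE of the 9 in the WT response (0.19).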
